A study of Homo sapiens with 36 samples.

Results

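EHEB and JVM2 are human B lymphoid leukaemia cell lines, and their vehicle-treated libraries were compared to describe how the lines differed when no drug was given. The libraries were chosen by their titles, which name the line and DMSO, the solvent of the drugs, and they are 6 of the 36 libraries of the series. EHEB cells were cultured with DMSO for 96 h (3 libraries) and JVM2 cells for 72 h (3 libraries). The series holds 12 groups of 3 libraries, in which MEC1, JVM2 and EHEB cells received DMSO, 50 µM fludarabine, 5 µM ibrutinib or 10 µM idelalisib. Each line descends from 1 patient and both are known to carry Epstein-Barr virus, so each side is a single established line and not a sample of patients. The line, the time in culture and the numbers of the libraries separate the libraries in the same way and cannot be told apart. Nothing in the labels says whether the 3 libraries of a line came from separate cultures, so P values measure the spread between these libraries, which may be technical.

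B cells read antigen with an immunoglobulin built from a heavy and a light chain, each with a variable and a constant region. During maturation a cell keeps 1 productive heavy chain, selects kappa or lambda for the light chain, and may later exchange the IgM and IgD constant region for IgG, IgA or IgE. The same cells present antigen on MHC class II, answer interferons and, when they become plasma cells, switch their transcription factors. JVM2 is known for a translocation that brings the cyclin D1 gene to the immunoglobulin heavy-chain locus.

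The RNA was rRNA-depleted total RNA. Total deposited counts lay between 42832321 and 47140796 in the EHEB libraries and between 35479702 and 48753246 in the JVM2 libraries, with 20433 to 21748 genes above 0. Replicates of a line differed by more than counting noise, at 11.5 to 17.2 times the chi-square expected per gene. Levels below are CPM (counts per 1000000 counts of the library) after TMM scaling, as mean ± SD of 3 libraries unless the libraries are given one by one, in the order of the library numbers. CPM was not divided by gene length, so levels are compared between the lines and not between genes. Differences are log2 of EHEB over JVM2 ± SE, so that a positive value is higher in EHEB. Genes of chromosomes X and Y were set aside, which left 15864 tested genes. Of these 62.0% were called at an adjusted P under 0.05 (edgeR), 32.0% higher and 30.0% lower in EHEB, and 29.5% were called with a difference of at least 1 on the log2 scale (15.2% higher, 14.4% lower). In 70.1% of all genes the libraries of the lines did not overlap (36.1% higher, 34.0% lower). The counts of each gene group below are to be read against these shares.

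EHEB expressed immunoglobulin G with a kappa light chain, and JVM2 expressed IgM and IgD with a lambda light chain. IGHM, the constant region of IgM, measured 5448, 5537 and 5720.5 CPM in the JVM2 libraries and 0.188, 0 and 0 CPM in the EHEB libraries (adjusted P = 8.74e-07). IGHD, the constant region of IgD, measured 497, 521 and 556 CPM in JVM2 and had no count in EHEB, and was thus at least 2929.9-fold higher in JVM2. These and the other at-least folds below set the line without counts at a floor of 3 fragments per library. IGHG1, the constant region of IgG1, measured 3629, 3136 and 3192 CPM in EHEB and 0.167, 0.695 and 0.837 CPM in JVM2 (12.45 ± 0.38, adjusted P = 1.13e-06). The heavy-chain constant genes were thus split between the lines, with 7 of 9 higher in EHEB (7 of 9 also at 1 or more) and 2 lower.

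The remaining IgG genes followed IGHG1. IGHG2 measured 287.1, 277 and 220.1 CPM in EHEB against no count in JVM2, at least 1398-fold higher in EHEB. IGHG3 measured 383, 393 and 407 CPM in EHEB and 0.389, 0.247 and 0.440 CPM in JVM2, and IGHG4 measured 368 ± 7.28 and 0.0488 ± 0.0846 CPM. IGHA1 (53.8 ± 6.51 against 0.0834 ± 0.0833 CPM), IGHA2 (2.99 ± 0.519 against 0.139 ± 0.240) and IGHE (1.38 ± 0.432 against 0.0209 ± 0.0363) were also higher in EHEB, although IGHA2 was not called by DESeq2. The IgG genes, and likewise IGHA1 and IGHA2, are close copies of each other, so a share of their counts could have been moved between them when reads were assigned.

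Light chains divided the lines too. IGKC, the kappa constant region, measured 8865, 8289.9 and 7805 CPM in EHEB and 266, 291 and 314 CPM in JVM2, a 28.7-fold ratio of the means (4.84 ± 0.089, adjusted P = 2.11e-07). The lambda constant regions IGLC2 and IGLC3 were lower in EHEB. IGLC2 measured 0.234, 0.183 and 0.105 CPM in EHEB and 464, 428 and 451 CPM in JVM2, and IGLC3 0.0428 ± 0.0551 and 103 ± 2.49 CPM. The libraries did not overlap for any of the 3 genes. In the plot of the constant genes by library, the switch of lines from one gene to the next can be read directly.

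**Figure D1:**
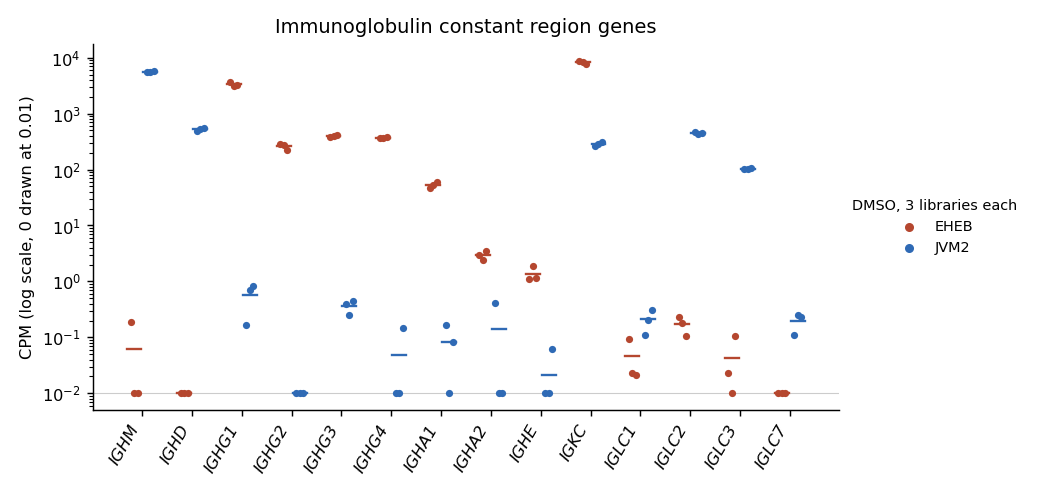
CPM (log scale) of 14 immunoglobulin constant genes in each DMSO library, with EHEB and JVM2 libraries as separate points, means as short lines and 0 drawn at 0.01. IGHM and IGHD are high only in JVM2 (means of 5569 and 525 CPM) and IGHG1 to IGHG4 only in EHEB, and IGKC is the only light-chain gene above 10 CPM in both lines.

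Few variable segments carried most of the counts, which is how a clonal B-cell line is known to look. In EHEB, IGHV1-18 held 64.1% of the counts of all 60 heavy-chain segments and IGKV1-33 held 73.1% of those of 46 kappa segments. In JVM2, IGLV2-14 held 97.3% of the counts of 37 lambda segments. IGHV1-18 measured 89.1, 86.2 and 101 CPM in EHEB with no count in JVM2, at least 492-fold higher. IGKV1-33 measured 2845, 2679 and 2395 CPM in EHEB and 0.0833, 0 and 0 in JVM2, and its near-identical copy IGKV1D-33 measured 954 ± 27.7 CPM in EHEB, so their counts cannot be attributed to one of them with confidence. IGLV2-14 measured 630.2, 629 and 652 CPM in JVM2 and 0.141, 0 and 0 CPM in EHEB. The leading heavy-chain segment of JVM2, IGHV3-20, measured 0, 70.3 and 75.4 CPM, which left 1 library without a count, and the gene did not enter the test. It held 58.2% of the heavy-chain segment counts of that line.

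Genes that assemble or alter antibodies did not all follow the isotype. JCHAIN, which joins IgM and IgA into polymers, measured 769, 557 and 654 CPM in EHEB and 721, 715 and 556 CPM in JVM2, with overlapping libraries (−0.01 ± 0.14, adjusted P = 0.962). MZB1, a chaperone of secretory IgM, was lower in EHEB (3.99 ± 0.529 against 23.5 ± 1.42 CPM, −2.56 ± 0.12). Among 9 deaminase and uracil glycosylase genes, 4 were higher in EHEB and 3 lower, and of the APOBEC3 genes APOBEC3C was higher (0.76) and APOBEC3B lower (−0.73).

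Both lines carried B-cell transcripts at levels that differed gene by gene. Of 17 tested B-cell lineage genes, 6 were higher in EHEB, 6 lower and 5 not called. MS4A1, which encodes CD20, measured 275, 257 and 254 CPM in EHEB and 106, 91.1 and 89.9 CPM in JVM2 (1.45 ± 0.077). CD79A, which signals for the B-cell receptor (BCR), was higher in EHEB (0.84) whereas its partner CD79B was lower (−0.77). The complement receptor CR2 was higher (9.51 ± 1.04 against 1.81 ± 0.295 CPM, 2.39), and the BAFF receptor TNFRSF13C (−1.26) and FCRLA (−1.95) were lower. PAX5, the factor that maintains B-cell identity, measured 477 ± 16.4 and 491 ± 1.67 CPM and was not called.

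Markers of other cell types were checked in the same libraries. In these bulk samples, fewer cells of a type and less RNA per cell cannot be told apart. The T-cell genes CD3D, CD3G and CD8A had no count in any library. Of 8 tested T-cell and natural killer genes 7 were higher in EHEB and 1 lower (−0.47). Among the higher genes were CD2 (5.67 against 0 CPM), CD3E (4.86 against 0.103 CPM) and KLRD1 (19.7 against 8.11 CPM). The list summed to 72.3–79.3 CPM in EHEB and 62.3–64.3 CPM in JVM2, where members not named here made up most of it. LYZ, MPO and ELANE, which define myeloid cells, had no count, and 4 tested myeloid genes were split 2 and 2 (sums 27.0–31.1 and 18–21.2 CPM). No erythroid or platelet gene could be tested. Of 7 tested epithelial and stromal genes 5 were lower in EHEB and 1 higher, with the keratin KRT8 (1.01 against 16.4 CPM) and the receptor PDGFRB (15.2 against 67.3 CPM), and KRT19 and COL1A2 had no count (sums 86.3–92.1 and 147–154 CPM). The part of such transcripts in the differences below was not tested.

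Transcription factors of B-cell and plasma-cell fate were divided as well, with 9 of 22 tested higher in EHEB and 6 lower. PRDM1, which encodes the plasma-cell repressor BLIMP1, measured 308, 278 and 264 CPM in EHEB and 49.6, 54.8 and 47.9 CPM in JVM2 (2.48 ± 0.082, adjusted P = 1.49e-06), with a wide gap between the lines. Its plasma-cell partners IRF4 (1802 ± 111 against 1751 ± 7.66 CPM) and XBP1 were not called, and XBP1 varied within both lines (348, 132 and 341 CPM in EHEB, 218, 86.2 and 153 CPM in JVM2). FOXP1 (4.56 against 0.257 CPM, log2 4.11, adjusted P = 3.86e-05), BACH2 (8.69 against 2.61 CPM, log2 1.74, adjusted P = 0.0012) and the Notch receptor NOTCH1 (389.5 against 126 CPM, log2 1.63, adjusted P = 7.75e-07) were higher in EHEB. ID2 (7.34 against 21.1 CPM, log2 −1.52, adjusted P = 2.28e-05), an inhibitor of E proteins, the E protein TCF3 (42.1 against 107 CPM, log2 −1.34, adjusted P = 1.54e-05) and BATF (29.6 against 71.7 CPM, log2 −1.28, adjusted P = 5.78e-06) were lower.

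A second contrast of all or nothing concerned the desmosomal cadherins. These adhesion proteins hold the cells of skin and other epithelia together through desmosomes, and their 7 genes lie side by side on chromosome 18 from 30989365 to 31549008 (GRCh38), a span of 560 kb. DSG2 measured 329, 355 and 336 CPM in the EHEB libraries and had no count in JVM2, at least 1819-fold higher in EHEB. DSC2 measured 158, 166 and 151 CPM in EHEB against 0, 0 and 0.0628 CPM in JVM2. DSC3 measured 55.7, 59.0 and 53.2 CPM in EHEB with no count in JVM2, at least 299-fold higher.

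The remaining 4 cadherins were also on in EHEB. DSC1 measured 51.6, 44 and 43.7 CPM there (at least 248-fold higher), and DSG3 measured 12.8, 11.8 and 11.4 CPM (at least 64.2-fold), both with no count in JVM2. DSG1 measured 12.5, 13.5 and 13.9 CPM against 0.167, 0 and 0 CPM, and DSG4 0.375, 0.755 and 1.13 CPM against no count. All 7 were therefore called higher in EHEB with no overlap of the libraries. Of the markers of epithelial cells EPCAM and KRT19 had no count in EHEB, KRT8 and KRT18 were lower there, and CDH1 was not called.

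Neighbouring genes did not share this pattern throughout. B4GALT6, a galactosyltransferase on the same stretch, was lower in EHEB (55.1 ± 7.64 against 82.4 ± 7.58 CPM, −0.58 ± 0.12) and TRAPPC8, of vesicle transport, was higher (100.5 ± 5.38 against 61.8 ± 3.38 CPM, 0.70 ± 0.065). GAREM1 measured 10.1 ± 1.74 CPM in EHEB and 0.0906 ± 0.0944 CPM in JVM2. TTR, the first gene past DSG2 in the plot of the region, had no count in either line. Genes of other desmosome proteins, chosen after their values were seen, were mixed. Plakophilin 2, PKP2 (10.2 against 0.714 CPM, log2 3.83, adjusted P = 2.88e-05), and PERP (39.5 against 13.4 CPM, log2 1.56, adjusted P = 2.09e-05) were higher and plakoglobin, JUP (60.9 against 143.1 CPM, log2 −1.23, adjusted P = 2.01e-06), was lower. The plot of the region sets the cadherins beside the genes that follow them.

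**Figure D2:**
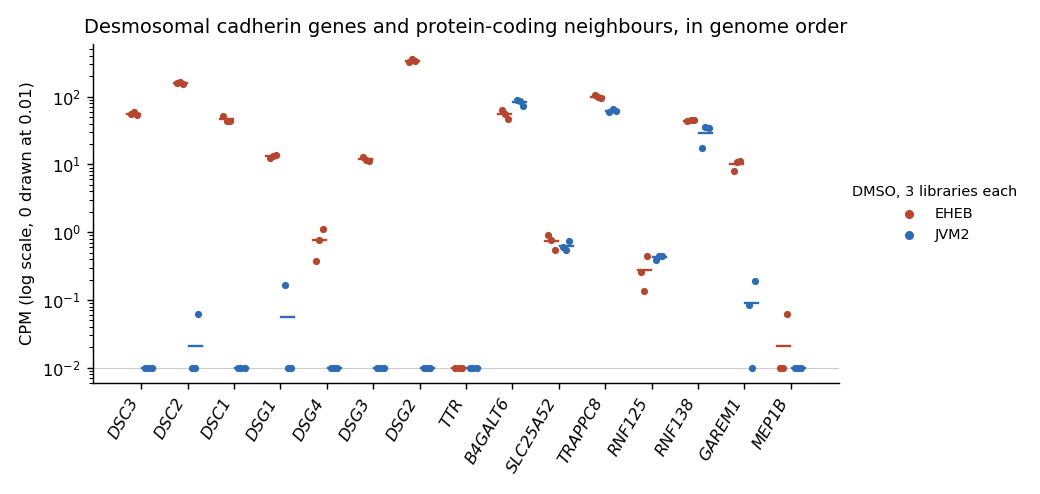
CPM (log scale) of the 7 desmosomal cadherin genes in each DMSO library, followed by the neighbouring protein-coding genes in genome order, with means as short lines and 0 drawn at 0.01. The cadherins are at 0 or at most 0.167 CPM in the JVM2 libraries and between 0.375 and 355 CPM in EHEB, whereas B4GALT6 and TRAPPC8 are expressed in both lines.

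Counting 5 of the cadherins, 48 genes were on in EHEB, with at least 10 CPM in each of its libraries and at most 3 counts in any JVM2 library, and 11 genes were on in JVM2 by the reverse rule. Of these, 42 and 8 were protein-coding, and 32 and 9 had no count at all in the other line. In EHEB they included SAMD5 (113 ± 3.70 CPM, at least 607-fold higher), RFLNB (113 ± 2.65 CPM, at least 603-fold), the phosphodiesterase PDE10A (90.0 ± 1.33 CPM) and the adhesion receptor ADGRG6 (88.0 ± 5.35 CPM). YBX3, a cold shock domain protein, measured 107 ± 3.43 CPM in EHEB with 4 counts over the JVM2 libraries, a ratio of 2580.2 (95% counting interval 714 to 21311). The matrix gene TNC (at least 107-fold) and the activating receptor NCR2 (at least 181-fold) had no count in JVM2. Both were picked after their values were seen.

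The genes on only in JVM2 were led, after IGHD, by RTL6 (42.3 ± 1.93 CPM, at least 236-fold higher in JVM2), the long noncoding RNA LINC02236 (35.9 ± 1.90 CPM, at least 201-fold), the Wnt antagonist NKD2 (34.7 ± 2.01 CPM, at least 194-fold) and SEMA6D (27.4 ± 9.39 CPM, at least 153-fold), a semaphorin. ANKS6, CORO2A, TSKU, RAB34 and NCS1 measured between 12 and 16.2 CPM in JVM2. None of the 11 exceeded 3 counts in an EHEB library.

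Large differences were also found among genes with counts in both lines. CDC42BPA, a kinase of the cytoskeleton, measured 315, 328 and 342 CPM in EHEB and 1.64, 1.41 and 0.984 CPM in JVM2 (7.94 ± 0.17, adjusted P = 4.1e-07). KIAA1671 (434 ± 26.2 against 1.98 ± 0.641 CPM, 7.76 ± 0.23), the phosphatase PTPRK (145 ± 1.83 against 0.721 ± 0.0488, 7.65 ± 0.073), the adhesion receptor ADGRL2 (312 ± 11 against 0.0950 ± 0.115), WDFY3 (139.9 ± 5.24 against 0.107 ± 0.0257) and the phosphatase subunit PPP2R2C (183.8 ± 22.1 against 0.527 ± 0.252) were higher in EHEB. SERPINB2, an inhibitor of plasminogen activators, measured 97.3 ± 3.40 and 0.0696 ± 0.0639 CPM.

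Among the protein-coding genes with the largest differences towards JVM2, PRRX1, a homeobox factor known from mesenchyme, measured 3.87, 8.19 and 8.14 CPM in EHEB and 603, 607 and 594 CPM in JVM2 (−6.48 ± 0.31, adjusted P = 5.63e-06). The matrix protein EDIL3 measured 3.68 ± 0.494 and 597 ± 20 CPM (−7.34 ± 0.11), and TMEM119 1.12 ± 0.425 and 170.4 ± 9.64 CPM (−7.26 ± 0.26). No EHEB library reached a JVM2 library for these 3 genes.

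PIGR, the epithelial transporter of polymeric antibodies, measured 2.46 ± 0.158 CPM in EHEB and 201 ± 7.23 CPM in JVM2 (−6.35 ± 0.075). LRP1, an endocytic receptor, measured 7.81 ± 2.05 and 340.3 ± 23.3 CPM (−5.44 ± 0.22), and the ephrin receptor EPHA3 8.62 ± 0.485 and 343 ± 3.11 CPM (−5.31 ± 0.061). MAP1B (4.20 against 189 CPM, −5.49) and DBN1 (0.297 against 45.6 CPM, −7.24), which bind microtubules and actin, the axon guidance gene NTN1 (4.28 against 169 CPM, −5.30), the collagen chaperone FKBP10 (0.142 against 58.6 CPM, −8.66), LARP6 (1.21 against 115 CPM, −6.57), HDGFL3 (1.51 against 116 CPM, −6.26) and CKAP4 (2.85 against 123 CPM, −5.43) were likewise lower in EHEB.

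Wide gaps in CPM were also found in genes expressed in both lines. CCND2, the cyclin D2 gene, measured 4046, 3751 and 3445 CPM in EHEB and 829, 789 and 749 CPM in JVM2 (2.25 ± 0.074), and ACTB 6033 ± 682 and 3251 ± 615 CPM (0.89 ± 0.15). In the other direction, the 7SK RNA gene RN7SK measured 16898 ± 929 and 33092 ± 1825 CPM (−0.97 ± 0.064) and RPPH1, the RNA of RNase P, 2752 ± 72.1 and 6498 ± 541 CPM (−1.24 ± 0.067). Genes of the 7SL family have many near-identical copies, and RN7SL2 (−0.40) and RN7SL4P (−0.39) are uncertain for that reason.

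Of 1141 tested long noncoding RNA genes, 52.1% were called and the median size of the log2 difference was 0.95, against 65.4% and 0.57 for 13178 protein-coding genes. The classes were not matched for expression level, so these values do not compare them at equal counts. FAM30A, a lymphoid transcript, measured 377 ± 24.7 CPM in EHEB and 0.0555 ± 0.0962 CPM in JVM2. HCP5, within the MHC, measured 281.7, 280.9 and 274 CPM in EHEB and 14.8, 14.5 and 14.8 CPM in JVM2 (4.25 ± 0.046), tight values in both. Its difference was not called with any drug (0.82, −0.20 and 0.42 with fludarabine, ibrutinib and idelalisib). The libraries of a group spread widely there, at 177 ± 134.95 CPM in JVM2 with fludarabine, 159.9 ± 124 CPM in EHEB with ibrutinib, and 148 ± 114 and 110.2 ± 84.5 CPM in EHEB and JVM2 with idelalisib. In the joint edgeR fit its difference from DMSO had adjusted P = 0.0853, 0.0367 and 0.0555 with fludarabine, ibrutinib and idelalisib. LINC00462 (23 against 0.758 CPM, 4.90), NPSR1-AS1 (14.5 against 1.36 CPM, 3.43) and LINC01320 (14 against 1.72 CPM, 3.02) were higher in EHEB, and OSTN-AS1 (0.579 against 20.1 CPM, −5.10) and DUXAP8 (1.73 against 33.2 CPM, −4.26) lower. Strand was not stated for the counting, so an antisense gene and its partner cannot be told apart.

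The protocadherin clusters of chromosome 5 went in opposite directions. These neighbouring sets of adhesion genes are best known from neurons, where each cell is thought to choose a few members. Of the 16 beta genes (141051374 to 141249365) 14 were tested, 11 were lower in EHEB and none higher (3 were not called), with a median of −1.57. Of the 22 gamma genes (141330514 to 141512977) 13 were higher and 4 lower, with a median of 1.07. None of the 15 alpha genes had enough counts to be tested.

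Single members show how low and uneven these values were. PCDHB2 measured 0.985, 1.3 and 1.05 CPM in EHEB and 3.14, 2.49 and 3.39 CPM in JVM2 (−1.43 ± 0.22), and PCDHB6 0.399, 0.320 and 0.0420 and 1.94, 1.79 and 1.47 CPM (−2.78 ± 0.61). PCDHGC3 measured 14.7, 74.4 and 12 CPM in EHEB and 0.777, 0.830 and 0.691 CPM in JVM2 (5.45 ± 0.88), and PCDHGA10 50.3, 15 and 13.4 and 1.5, 1.75 and 1.42 CPM (4.07 ± 0.6). In PCDHGC3 and PCDHGA10 a different EHEB library each stood far above the others, whereas PCDHGA6 was even (6.78, 7.16 and 7.39 CPM in EHEB). The gamma genes share their last exons, so reads there could have been assigned to any member.

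**Figure D3:**
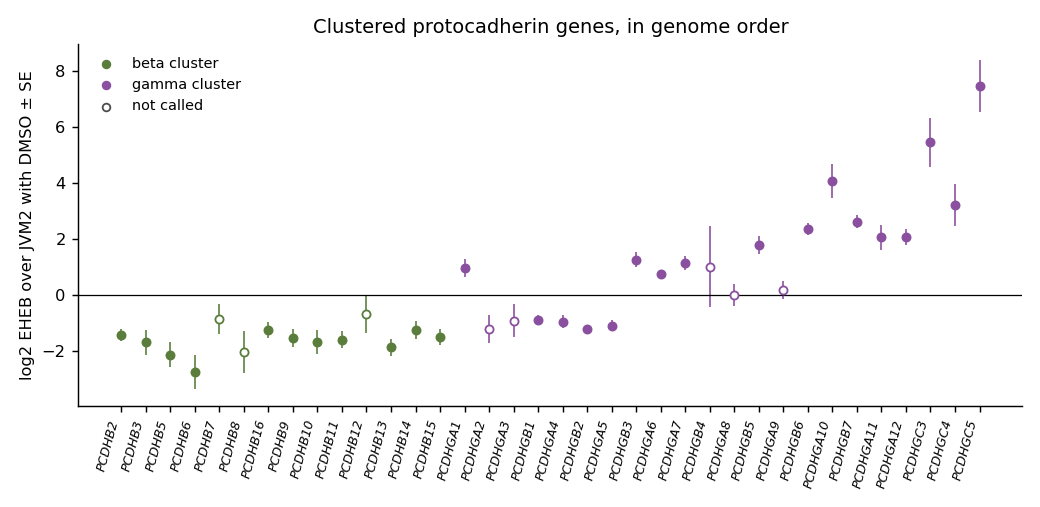
Log2 of EHEB over JVM2 (± SE) for the tested protocadherin beta and gamma genes in genome order, with open points for genes not called. All called beta genes lie below 0, and most called gamma genes above it.

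Interferon-stimulated genes were higher in EHEB almost throughout. Of 25 tested, 24 were higher, none lower and 1 was not called, against 32.0% higher among all genes, and 18 were higher by at least 1 on the log2 scale. The median was 1.26, against 0.03 over all genes, and the summed level was 6633–7116 CPM in EHEB and 2343–2522 CPM in JVM2. Interferons act through transcription factors such as STAT2 and IRF9, which bind a short element in the promoters of genes that block viral replication.

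IFI27 measured 50.7, 31.6 and 50.7 CPM in EHEB and 2.92, 2.53 and 1.74 CPM in JVM2 (4.22 ± 0.27, adjusted P = 2.26e-05), IFIT1 34.0, 34.9 and 32.8 and 5.16, 3.95 and 4.46 CPM (2.91 ± 0.11), and RSAD2, the antiviral enzyme viperin, 4.46, 7.11 and 5.10 and 0, 0.135 and 0 CPM. Each of these 3 genes separated the lines without overlap. The RNA sensor DDX58 (81.8 against 12 CPM, 2.77), XAF1 (52.6 against 5.60 CPM, 3.23), IFIT3 (99.3 against 22 CPM, 2.17), the ubiquitin-like modifier ISG15 (220.4 against 53 CPM, 2.06), the nucleotide synthetase OAS2 (724 against 162 CPM, 2.16) and the GTPase MX1 (700.1 against 296 CPM, 1.24) were higher too. IRF9 measured 48.1, 64.1 and 121 CPM in EHEB and 27.8, 26.2 and 54.1 CPM in JVM2, was highest in 1 library of each line and was not called (adjusted P = 0.0557).

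The core of the interferon-stimulated response element, 2 copies of GAAA with any 2 bases between them, was searched for on both strands in the 250 bases before the gene start (RefSeq, GRCh38.p14). It was present in 13 of 18 matched genes of the list (72.2%) and in 3.02% of 35116 promoters. A gene was counted if any promoter listed for it held the element, whereas the second share counts single promoters. The shares are therefore not strictly comparable. Sites of the list genes with the largest differences are shown 5′ to 3′ on the strand of the gene. The element is in capitals, and its first base is counted from the gene start.
RSAD2 (chr2:6877622-6877651, plus strand, −145): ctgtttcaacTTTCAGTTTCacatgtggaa
IFI27 (chr14:94110631-94110660, plus strand, −95): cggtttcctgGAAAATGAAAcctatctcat
IFIT1 (chr10:89392510-89392539, plus strand, −103): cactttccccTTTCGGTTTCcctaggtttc
IFIT3 (chr10:89332468-89332497, plus strand, −51): gttccatcagTTTCACTTTCctttcccctt

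These 4 genes differed by 2.17 to 6.81 on the log2 scale between the lines. Of other genes that hold the element, ISG15 differed by 2.06, MX1 by 1.24 and BST2 by 0.26. A match describes letters and does not show that a factor was bound.

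Mitotic genes were lower in EHEB. Of 22 tested, 20 were lower (30.0% among all genes), none higher and 2 not called, with a median of −1.04 and 12 at −1 or below. The summed level was 910–1050 CPM in EHEB and 1822–1909 CPM in JVM2. KIF20A, a kinesin of cytokinesis, measured 19.8, 19.8 and 16.5 CPM in EHEB and 49.6, 60.3 and 61.8 CPM in JVM2 (−1.61 ± 0.12). CCNB2, a cyclin of mitotic entry, measured 17.9, 19.1 and 20.6 and 47.8, 52.4 and 52.5 CPM (−1.41 ± 0.079, adjusted P = 1.15e-05), and TOP2A, which untangles chromosomes, 159, 168 and 165 and 369.6, 378 and 384 CPM (−1.20 ± 0.042, adjusted P = 1.76e-06). No library of either line overlapped in these genes.

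PLK1, the polo kinase, measured 24.2, 28.6 and 21.3 CPM in EHEB and 49.4, 50.3 and 61.6 CPM in JVM2 (−1.12 ± 0.14). BIRC5 (8.81 against 24.0 CPM, −1.44), UBE2C (16.7 against 42.8 CPM, −1.36) and CCNA2 (34.7 against 88.6 CPM, −1.35) were lower as well. MKI67, the marker of cycling cells, measured 87.6, 167 and 194 CPM in EHEB and 226, 234.3 and 242 CPM in JVM2 and was not called (adjusted P = 0.074), with 1 EHEB library far under the others. BUB1 was not called (0.12).

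The hexamer TTTGAA, searched for on both strands and known from promoters of mitotic genes as the cell cycle genes homology region, was present within 250 bases in 10 of 18 matched mitotic genes (55.6%) and in 13.3% of all promoters. Genes and promoters were counted as for the interferon genes. MKI67, which was not called (−0.64), also held the hexamer. Sites of the list genes with the largest differences are written as above.
CCNB2 (chr15:59105105-59105134, plus strand, −29): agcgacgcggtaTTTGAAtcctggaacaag
TOP2A (chr17:40418030-40418059, minus strand, −151): ctgattggtttaTTCAAAcaaaccccggcc
PLK1 (chr16:23678848-23678877, plus strand, −29): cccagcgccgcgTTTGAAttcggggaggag

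S phase genes went the other way, with 13 of 21 higher in EHEB, 6 lower and a median of 0.54. The helicase subunits MCM4 (96.6 against 38.5 CPM, 1.33) and MCM3 (93.0 against 39.8 CPM, 1.23) and the clamp PCNA (140.4 against 73.1 CPM, 0.94) were higher. The licensing factor CDT1 (29.1 against 66.6 CPM, −1.19) and the ribonucleotide reductase subunit RRM2 (48.4 against 102 CPM, −1.07) were lower.

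Genes of the G1 phase differed widely, 8 higher and 7 lower of 19. CCND1, the cyclin D1 gene, measured 126, 121 and 119 CPM in EHEB and 931, 873 and 889 CPM in JVM2 (−2.88 ± 0.048, adjusted P = 1.66e-07), opposite to CCND2. Of the kinases these cyclins bind, CDK6 (607 against 149 CPM, 2.02) was higher in EHEB and CDK4 (46.9 against 85.4 CPM, −0.86) lower. RB1 (519 against 143.7 CPM, 1.85), whose protein these kinases phosphorylate, and the inhibitor CDKN2C (23.8 against 6.01 CPM, 1.99) were higher, and the inhibitors CDKN1B (56.0 against 161 CPM, −1.53) and CDKN1C (0.795 against 4.12 CPM, −2.37) lower.

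Genes of antigen presentation were mostly higher in EHEB. Of 18 MHC class II genes 13 were higher, 3 lower and 2 not called (median 0.64). HLA-DQA1 measured 973, 930 and 899.7 CPM in EHEB and 147, 159 and 157 CPM in JVM2 (2.60 ± 0.053, adjusted P = 3.15e-07). HLA-DQB1 measured 504, 512 and 307 and 30.9, 32.1 and 32.4 CPM (3.79 ± 0.21), and the invariant chain CD74 4222, 4188 and 4088 and 1509, 1572 and 1579 CPM (1.42 ± 0.04). The lines did not overlap for these genes.

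HLA-DRB5 (439 against 36.2 CPM, 3.60) and HLA-DRB1 (688 against 150.1 CPM, 2.2) were also higher, and HLA-DQA2 (20.4 against 139 CPM, −2.77) and HLA-DQB2 (3.21 against 12.6 CPM, −1.97) lower. HLA-DRA differed by 0.19 ± 0.058, a call that was lost without the first or the second EHEB library or the first or the second JVM2 library, and CIITA, the master activator of the class, by 0.58 ± 0.07. HLA genes have close copies and many alleles, and reads of an allele unlike the reference can be lost or moved, so these single-gene values are uncertain. In MHC class I, 7 of 15 genes were higher and 3 lower. The peptide transporter TAP1 (637 against 277 CPM, 1.20) and the peptidase ERAP1 (201 against 96.7 CPM, 1.06) were higher, whereas ERAP2 (11.2 against 125 CPM, −3.48) was lower. B2M varied within both lines (6443 ± 1887 and 3825 ± 2992 CPM) and was not called.

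The BCR pathway was split, with 10 of 24 tested genes higher in EHEB and 11 lower. Its first kinase, LYN, measured 269, 259 and 252 CPM in EHEB and 568, 576 and 566 CPM in JVM2 (−1.13 ± 0.041, adjusted P = 2.01e-06), without overlap. Among kinases, BLK (202 against 92.4 CPM, 1.13) and SYK (78.5 against 63.9 CPM, 0.30) were higher. BTK, the target of ibrutinib, lies on chromosome X and was set aside. Of adaptors and effectors, PLCG2 (509 against 202 CPM, 1.33) and MALT1 (161 against 41.9 CPM, 1.94) were higher and PIK3AP1 (63.3 against 212 CPM, −1.74) and NFATC1 (4.25 against 21.8 CPM, −2.36) lower. Of inhibitors, the phosphatases INPP5D (319.8 against 111 CPM, 1.52) and PTPN6 (351 against 145 CPM, 1.27) were higher, and SIGLEC10 (0.653 against 3.95 CPM, −2.60) and the ligase CBLB (97.8 against 241 CPM, −1.30) lower.

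PIK3CD, the target of idelalisib, was a little higher in EHEB (285 ± 4.01 against 235 ± 21.0 CPM, 0.28 ± 0.069, adjusted P = 0.0111). In the PI3K pathway 10 of 22 genes were higher and 4 lower. The kinase genes AKT1 (−0.37) and AKT2 (0.07) were not called. The regulatory subunit PIK3R6 (6.89 against 65.8 CPM, −3.26) was lower and PIK3R1 (214 against 61.6 CPM, 1.80) higher. The transcription factors that the pathway restrains went apart, with FOXO1 (259 against 90.3 CPM, 1.52) higher and FOXO3 (129 against 263 CPM, −1.03) lower.

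Surface and intracellular markers used for chronic lymphocytic leukaemia (CLL) gave 9 of 17 higher and 4 lower. LEF1, a Wnt factor that marks CLL, measured 47.3, 49.2 and 45.3 CPM in EHEB and 0.25, 0.336 and 0.126 CPM in JVM2 (7.64 ± 0.23, adjusted P = 1.13e-06). ZAP70 (2.93 against 0.0278 CPM, 6.78) and CD38 (55.5 against 30.3 CPM, 0.87), both used for prognosis, were higher, as were CD5 (0.989 against 0.343 CPM, 1.51) and FCMR (154 against 55.9 CPM, 1.46). FCER2, which encodes CD23, measured 107 ± 5.05 and 317 ± 36.5 CPM (−1.57 ± 0.09), and CD27 (32.9 against 102 CPM, −1.64) and CD200 (84.1 against 157 CPM, −0.90) were lower too. ROR1 was near 0 in both lines (0.0469 and 0.0508 CPM).

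Some homing receptors differed widely, and of the 22 homing and adhesion genes 12 were higher in EHEB and 6 lower. CXCR4, the receptor for stromal CXCL12, measured 22.9, 26.8 and 27.7 CPM in EHEB and 0.167, 0.292 and 0.335 CPM in JVM2 (6.56 ± 0.21, adjusted P = 1.33e-06). GPR183, which guides B cells by oxysterols, measured 20, 22.2 and 21.6 and 388, 410.4 and 397 CPM (−4.23 ± 0.06, adjusted P = 1.02e-07). CCR6 measured 17.7, 6.77 and 17.0 CPM in EHEB and had no count in JVM2. CXCR4 and CCR6 were thus at most 0.335 CPM in a JVM2 library, whereas GPR183 was lower in EHEB but still expressed there.

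The follicle receptor CXCR5 (3.94 against 34.6 CPM, −3.13) was lower in EHEB and CCR10 (34.2 against 4.78 CPM, 2.84) higher. Of adhesion genes, CD9 (32.7 against 1.04 CPM, 4.96), ITGB7 (289 against 79.7 CPM, 1.86) and ITGB2 (311 against 107 CPM, 1.54) were higher, and ITGB1 (74.5 against 161 CPM, −1.12) lower. Among 25 cytokine and chemokine genes 13 were higher and 4 lower. CXCL10 (16.7 against 0.596 CPM, 4.79) and CXCL9 (3.60 against 0.0463 CPM, 6.40), which interferon induces, TNFSF13B (16.4 against 3.07 CPM, 2.42), the B-cell survival factor BAFF, IL32 (184.4 against 38.6 CPM, 2.25) and CCL5 (32.1 against 8.11 CPM, 1.98) were higher, and CXCL16 (0.939 against 3.68 CPM, −1.97) was lower.

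Receptors and signalling genes of innate immunity gave 11 of 19 higher and 5 lower, with MYD88 (26.9 against 8.60 CPM, 1.65), the adaptor of Toll-like receptors, higher and TLR6 (67.0 against 163 CPM, −1.29) lower. CD180 measured 5.12 ± 0.814 CPM in EHEB and had no count in JVM2. NF-kB genes gave 6 of 22 higher and 7 lower, close to the shares over all genes, led by the kinases IKBKE (26.6 against 7.88 CPM, 1.75) and CHUK (56.2 against 21.9 CPM, 1.36) and, in the other direction, NFKBIZ (34.7 against 78.1 CPM, −1.17). Costimulatory genes gave 6 of 21 higher and 7 lower, with TNFRSF9 (10.6 against 0.834 CPM, 3.68) higher, and CD83 (6.51 against 19.3 CPM, −1.57) and CD80 (106 against 269 CPM, −1.34) lower. Of 16 host genes that Epstein-Barr virus is known to induce, 8 were higher and 6 lower (median 0.35).

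MDM2, a ubiquitin ligase, measured 887, 934 and 746 CPM in EHEB and 593, 587 and 509 CPM in JVM2 (0.60 ± 0.1), and CDKN1A, which encodes p21, 622, 607 and 642 and 462, 472 and 470.3 CPM (0.41 ± 0.039). Both were higher in EHEB without overlap, though CDKN1A was not called in the joint fit of 36 libraries. SPATA18 (35.5 against 4.74 CPM, 2.90), TNFRSF10B (149.5 against 70.7 CPM, 1.08), a death receptor, and BTG2 (468 against 251 CPM, 0.90) were higher in EHEB. GDF15 (4.14 against 38.5 CPM, −3.21), a secreted stress factor, CCNG1 (126 against 289.6 CPM, −1.20), BBC3 (18.9 against 40.8 CPM, −1.11), which encodes PUMA, and ZMAT3 (915 against 1771 CPM, −0.95) were lower.

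In the BCL2 family 4 of 13 genes were higher and 7 lower. BCL2 measured 504, 521 and 521 CPM in EHEB and 739, 717 and 694 CPM in JVM2 (−0.48 ± 0.041, adjusted P = 8.25e-05), and MCL1 (764 against 460.4 CPM, 0.73), another survival protein, was higher. BCL2L11, which encodes the killer BIM, measured 49.5, 29.2 and 128 and 17.8, 16 and 6.57 CPM (2.35 ± 0.62). Its last EHEB library was far above the other two, and the difference was 1.55 without it. BMF (71.8 against 164 CPM, −1.19) and PMAIP1 (140.1 against 239.7 CPM, −0.78) were lower.

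Genes that handle the study's drugs were also compared. UGT2B17, which conjugates drugs to glucuronic acid and is the enzyme at the centre of the study, lies on chromosome 4, 68537173 to 68576413 (GRCh38). It measured 62.4, 58.9 and 55.3 CPM in EHEB and 12.6, 13.9 and 12.2 CPM in JVM2, without overlap (2.19 ± 0.081, adjusted P = 2.2e-06). UGT2B15 (14.2 against 4.06 CPM, 1.81), a close paralogue, UGT1A6 (3.66 against 0.112 CPM, 4.89) and UGT2A3 (3.59 against 0.0780 CPM, 5.59) were higher as well, and UGT2B7 measured 3.0 ± 0.178 CPM in EHEB with no count in JVM2. Only 12 of 27 genes of the list could be tested, with 7 higher and 1 lower, UXS1 (16.6 against 26.3 CPM, −0.66). UGT1A genes share their last exons, so counts could have been moved between them, and likewise between the paralogues UGT2B17 and UGT2B15.

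Of 16 tested genes of fludarabine handling 8 were higher and 5 lower. Activation needs DCK, the kinase that adds the first phosphate, which measured 33.5 ± 0.337 and 37.9 ± 1.72 CPM (−0.18 ± 0.059, adjusted P = 0.0345), a small difference that was no longer called in 6 of the other fits. Of 8 listed genes that break down nucleosides or nucleotides, 6 were higher and 1 lower. NT5E (22.6 against 6.83 CPM, 1.73), NT5C3A (90.9 against 36.8 CPM, 1.3), SAMHD1 (30.8 against 15.5 CPM, 0.99) and ADA (142.04 against 77.6 CPM, 0.87) were higher, and NT5C (6.70 against 13.8 CPM, −1.04) lower. Whether each of them acts on fludarabine was not tested. Of 9 ABC transporters 5 were higher and 3 lower. ABCB1, the P-glycoprotein gene, measured 10.3, 8.92 and 7.72 CPM in EHEB with no count in JVM2, and ABCG1 (3.47 against 17.8 CPM, −2.36) was lower. Glutathione and NRF2 genes were more often lower, 10 of 20 against 3 higher, with GSTM2 (2.08 against 11.2 CPM, −2.44) and GSTM3 (2.38 against 8.77 CPM, −1.88) lower and MGST1 (7.12 against 0.0776 CPM, 6.46) higher.

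Cells use stress genes controlled by ATF4 when amino acids run short or the endoplasmic reticulum is loaded. Of these, 7 of 8 were lower in EHEB, against 30.0% among all genes. The folding genes of the endoplasmic reticulum were split, with 4 of 8 higher, 3 lower and a median of 0.02. ATF4 itself measured 89.0, 88.2 and 110.4 CPM in EHEB and 314, 368 and 383 CPM in JVM2 (−1.89 ± 0.12, adjusted P = 1.75e-05). PHGDH (0.923 against 36.5 CPM, −5.31), the first enzyme of serine synthesis, DDIT3 (3.94 against 15.6 CPM, −1.98) and ATF3 (14 against 39.5 CPM, −1.5) were lower too. The next enzyme of serine synthesis, PSAT1, was the exception, at 13.4, 12.4 and 11.8 CPM in EHEB and no count in JVM2, at least 67.1-fold higher. EHEB thus carried PSAT1 with little PHGDH, and JVM2 PHGDH without PSAT1.

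Metabolic lists were less uniform. Cholesterol and fatty acid genes gave 10 of 17 higher and 3 lower, with the sterol enzymes FDFT1 (149 against 53.6 CPM, 1.47) and HMGCS1 (99.5 against 46 CPM, 1.11) higher and the regulator SREBF1 (8.39 against 16.9 CPM, −1.01) lower. Glycolysis and hypoxia genes gave 12 of 25 higher and 8 lower, with the hypoxia genes EGLN3 (62.3 against 2.25 CPM, 4.79) and NDRG1 (72.4 against 7.72 CPM, 3.23) higher and ADM (1.04 against 4.08 CPM, −1.97), BNIP3 (93.7 against 189.9 CPM, −1.02) and the glycolytic enzyme ALDOA (584 against 1181 CPM, −1.02) lower. Of 11 noncoding RNA genes of B-cell leukaemia 3 were higher and 6 lower, with MIR155HG (267 against 83.6 CPM, 1.68), the host of miR-155, and MALAT1 (1339.7 against 777 CPM, 0.79) higher, and MIR17HG (1.32 against 3.15 CPM, −1.25) lower.

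Transcripts of the mitochondrial genome were higher in EHEB in 34 of 35 tested genes, and none was lower. The 13 protein-coding genes had a median of 1.5 (0.73 to 1.90), and the 20 tRNA genes a median of 1.46. MT-CO1 measured 12094, 10592 and 8982 CPM in EHEB and 3082, 2929 and 2753 CPM in JVM2 (1.85 ± 0.11, adjusted P = 1.63e-05). The summed level was 12568–16698 CPM in EHEB and 4285–4596 CPM in JVM2.

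Cytosolic ribosomal protein genes were lower in 45 of 75 and higher in 2, with a small median of −0.32. RPL24 measured 289 ± 2.47 and 640.2 ± 15.4 CPM (−1.15 ± 0.038). Replication-dependent histone genes were lower in 40 of 66 and higher in 7 (median −0.49), and HIST1H4C measured 72.4, 66.2 and 70.5 CPM in EHEB and 237, 237 and 249.6 CPM in JVM2 (−1.79 ± 0.053). Of 16 tested genes of the homeobox clusters 11 were lower and 3 higher (median −1.24), among them HOXC4 (8.75 against 23 CPM, −1.40) and HOXB7 (7.91 against 16.8 CPM, −1.09). At a mean of 5 CPM or more only 3 were lower. Histone and ribosomal protein genes have many copies, so single members are uncertain. Zinc finger genes of chromosome 19 gave 53 higher and 58 lower calls with a median of −0.01. The plot of the lists sets 13 of the lists beside all genes.

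Along the genome, called genes were spread over all autosomes, with chromosome medians between −0.18 (chromosome 16) and 0.34 (chromosome 18). In 263 windows of 10 Mb with at least 20 tested genes, the lowest median was −0.75 on chromosome 16 from 30000001 to 40000000 (77 genes, 9 higher and 47 lower). It was followed by −0.57 on chromosome 12 from 50000001 to 60000000 (169 genes) and −0.50 on chromosome 3 from 190000001 to 200000000 (59 genes). The window of chromosome 16 had medians of −0.65, −0.63 and −0.60 in the fludarabine, ibrutinib and idelalisib libraries, which are other libraries of the same lines.

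The highest window medians were 1.51 on chromosome 7 from 10000001 to 20000000 (21 genes), 1.17 on chromosome 8 from 10000001 to 20000000 (38 genes, 26 higher and 3 lower) and 1.09 on chromosome 3 from 60000001 to 70000000 (24 genes). In the fludarabine, ibrutinib and idelalisib libraries the median of the chromosome 7 window was 0.51, 0.78 and 0.38, and that of chromosome 8 was 1.27, 0.76 and 1.18. With only genes of a mean of 5 CPM or more the windows of chromosomes 7 and 3 had medians of 0.42 and 0.52, and without the first EHEB library that of chromosome 7 was 0.99.

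The drug-treated libraries of the same lines served as a second reading of each line difference, since they share no library with the DMSO comparison. They carry the effect of the drug as well. Between EHEB and JVM2, 56.2% of genes were called with fludarabine (28.1% higher and 28.1% lower in EHEB), 56.6% with ibrutinib (28.9% and 27.7%) and 52.9% with idelalisib (25.9% and 26.9%). Of the genes called in DMSO and tested with the drug, 86.6%, 93.1% and 87.7% differed in the same direction, and 67.2%, 73.6% and 65.3% were also called in that direction. With each of the 3 drugs, 4695 of 9466 genes (49.6%) kept the call of DMSO. Among genes called with a difference of at least 1 these were 2995 of 4310 (69.5%). Called in the opposite direction were 487 genes with fludarabine, 339 with idelalisib and fewer with ibrutinib.

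DSG2 and IGHM differed between the lines in the same direction in every arm. DSG2 measured 429.7 ± 5.62 CPM in EHEB with fludarabine, 323 ± 15.6 with ibrutinib and 446 ± 15.5 with idelalisib, and at most 0.0270 ± 0.0468 CPM in a JVM2 group. IGHM measured 2275 ± 61.0, 5979 ± 79.2 and 7651 ± 205 CPM in JVM2 and 0.119 ± 0.111, 0.661 ± 1.03 and 0.202 ± 0.248 CPM in EHEB. Of 15 immunoglobulin constant and assembly genes tested in DMSO, 9 were higher in EHEB and 5 lower, whereas 7 were higher and 7 lower with fludarabine and 8 and 6 with either other drug. Over the 14 genes tested in both, the median was 3.43 in DMSO and 0.17 with fludarabine. With 7 higher and 7 lower, the fludarabine median lies between the higher and the lower genes and describes none of them. All 14 were still called with fludarabine. The line difference of 5 genes of the list was called below that in DMSO. One of them was IGHG3, at 149 ± 7.84 CPM in EHEB and 2.45 ± 0.379 CPM in JVM2 with fludarabine.

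Interferon-stimulated and mitotic genes differed between the arms. The 3 tests that follow set the line difference with a drug against that in DMSO, and they share the DMSO libraries. Over all genes the difference from DMSO was called in 25.0%, 14.2% and 23.5% with fludarabine, ibrutinib and idelalisib. The median of the 25 interferon-stimulated genes was 1.26 in DMSO and 0.12, 0.51 and 0.40 with the drugs, and the difference was below that in DMSO in 23, 21 and 21 members. IFIT1 measured 45.9 ± 0.677 CPM in EHEB and 26.5 ± 4.65 CPM in JVM2 with fludarabine, 32.4 ± 1.33 and 17.1 ± 0.599 CPM with ibrutinib, and 19.5 ± 2.04 and 16.6 ± 1.59 CPM with idelalisib. The libraries of each arm were scaled apart, so levels of different arms compare only roughly, and their change within a line was not tested. Read in that way, IFIT1 in JVM2 was above its DMSO level with each drug. In EHEB it was above its DMSO level with fludarabine and below it with idelalisib.

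Mitotic genes reversed with fludarabine, where 21 of 22 were higher in EHEB and none lower (median 1.65). TOP2A then measured 135.1 ± 2.88 CPM in EHEB and 48.7 ± 0.980 CPM in JVM2, and CCNB2 16.1 ± 0.778 and 6.35 ± 0.885 CPM. With ibrutinib and idelalisib the median was −0.57 and −0.35. The difference from DMSO was called in 22, 10 and 16 of 22 mitotic genes, in every case above DMSO. Replication-dependent histone genes likewise had a median of 0.82 with fludarabine and of −0.88 and −0.76 with ibrutinib and idelalisib. Mitochondrially encoded genes kept medians of 1.18, 1.33 and 0.72.

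UGT2B17 was higher in EHEB in every arm, by 2.39 with fludarabine, 1.04 with ibrutinib and 0.63 with idelalisib. Its difference from DMSO was not called with fludarabine (adjusted P = 0.069) and was −1.13 ± 0.10 and −1.51 ± 0.10 with ibrutinib and idelalisib (adjusted P = 8.97e-09 and 1.57e-11).

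**Figure D4:**
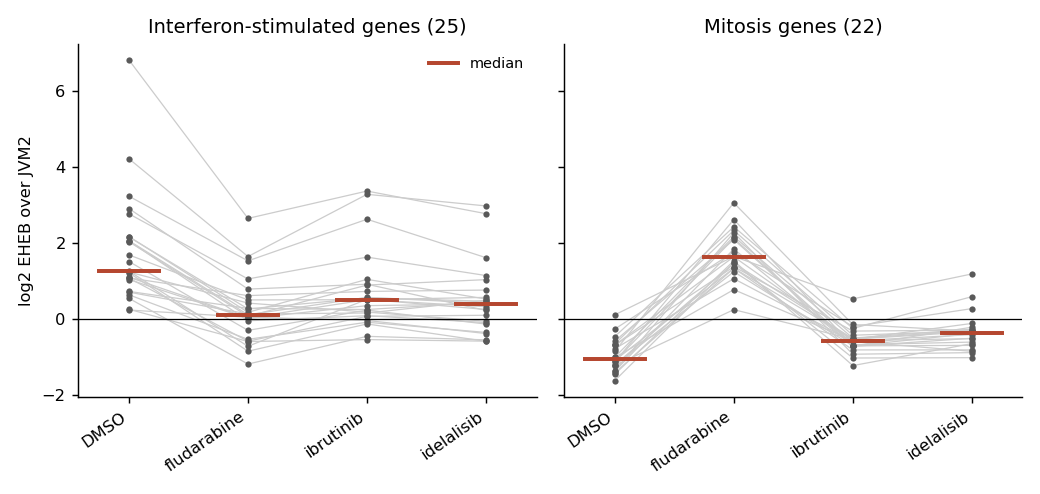
Log2 of EHEB over JVM2 for each of the 25 interferon-stimulated and 22 mitotic genes in the DMSO, fludarabine, ibrutinib and idelalisib libraries, with medians as lines. The interferon-stimulated median is 1.26 in DMSO and between 0.12 and 0.51 with the drugs, and the mitotic median is −1.04 in DMSO and above 0 with fludarabine alone (1.65).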

How the data were processed

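Gene counts were taken from the deposited table of 36 libraries. Per the labels and the methods, the authors trimmed reads with Trimmomatic, aligned them to GRCh38 with HISAT2 2.1 and derived the deposited expected counts with StringTie 1.3.4 (the notes also name edgeR 3.22.5). The sources used here give no read length, strand or annotation release. Low values step by 8/3, so that 1 fragment counts as about 8/3. StringTie derives counts from coverage, and reads shared by copies of a gene may be split between them. An entry with a blank symbol (0.00387% of counts) was left out. Of 37549 symbols, 36547 were current and 861 older, and positions came from GENCODE on GRCh38. Libraries were assigned to groups by title.

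The 6 DMSO libraries were fitted alone in edgeR 4.0.16 (R 4.3.3) with counts as deposited, TMM scaling, the filterByExpr filter (minimum 10, total 15) and a two-sided quasi-likelihood test. P values were adjusted by Benjamini-Hochberg over all 16570 genes tested, of which 657 on chromosomes X and Y and 49 without a position were then set aside. A gene was called at an adjusted P under 0.05. SE is the absolute log2 difference over the square root of the F statistic. The line difference was scaled and fitted likewise within each drug, so CPM of different arms is on separate scales. Its difference from DMSO was tested in a joint fit of all 36 libraries. The floor for a line without counts was 3 fragments, or 8 deposited counts, per library (0.179 CPM in EHEB, 0.187 CPM in JVM2), and intervals cover counting error only.

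The gene lists, the members and the tests were chosen with earlier results of these data known. Named are list members (up to 5 of the largest called in each direction in lists over 12, those that define the list and those not called), and the 15 protein-coding and 5 long noncoding genes with the largest called log2((CPM + 1)/(CPM + 1)) in each direction at 10 CPM or more in the higher line. Named as well are the 5 largest called differences in CPM in each direction, the 8 on-off genes of highest CPM in each line, the leading variable segments, and the 3 highest and 3 lowest windows, not all of which are printed, and some genes and 1 list are not reported here. Alternatives were DESeq2 1.42.0, limma-voom (limma 3.58.1), RLE and library size scaling, other filters, a joint fit, chromosomes X and Y left out before the fit, each library left out and, added after seeing the data, counts divided by 8/3. On simulated data of this comparison (16570 genes), edgeR recovered 64 of 90 genes changed by 1.5 and 8 of 110 changed by 0.5 on the log2 scale, with 4 false calls, and DESeq2 74 and 36 with 51. Python 3.11.15 and matplotlib 3.10.9 made the tables and figures.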

Additional observations from a re-analysis of the deposited data

Results flagged for a closer look

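Some differences between the lines were not the same in the drug-treated libraries as in DMSO. Values are the log2 of EHEB over JVM2 with the drug less the same in DMSO, tested as an interaction in the joint edgeR fit, and the 3 drugs share the DMSO libraries. Of 62 named genes, 4 differed by at least 1 in the same direction with all 3 drugs. For PRRX1 the values were 1.1, 1.99 and 2.73 with fludarabine, ibrutinib and idelalisib (adjusted P = 0.0247, 0.00021 and 1.51e-06). PRRX1 measured 9.97 ± 4.28, 40.7 ± 1.62 and 127 ± 1.22 CPM in EHEB and 431 ± 26.8, 926 ± 44.8 and 1765 ± 38.8 CPM in JVM2. For CDC42BPA they were −3.08, −1.14 and −1.16 (adjusted P = 6.79e-09, 0.0146 and 0.00748), with 7.51 ± 0.0243, 2.61 ± 0.368 and 2.95 ± 1.13 CPM in JVM2.

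The noncoding RNA genes LINC00462 (−1.76, −1.94 and −1.66) and LINC01320 (−1.57, −1.93 and −2.15) differed in the same way, with smaller line differences under each drug. LINC01320 measured 3.65 ± 0.834, 7.36 ± 0.937 and 8.40 ± 2.82 CPM in JVM2 with the drugs, against 1.72 ± 0.511 CPM in DMSO.

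Among lists of at least 10 tested members, 2 differed in at least 80% of their members. The line difference of all 22 mitotic genes was above that in DMSO with fludarabine. Of the 25 interferon-stimulated genes, the line difference was below that in DMSO for 23 under fludarabine, 21 under ibrutinib and 21 under idelalisib. No group was large enough for a search for outlying libraries, since each held 3.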

How the results depend on the processing

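No paired analysis was possible because the library numbers of EHEB and JVM2 have none in common. The counts of genes higher and lower in EHEB (5081 and 4762) ranged over 3655–5394 and 3547–5150 under the other fits of all 6 libraries, and over 4708–4892 and 4336–4564 with 1 library left out. With the size rule of 1 they were 2405 and 2282, and 2318–2510 and 2168–2317 with 1 library left out. At a mean of 5 CPM or more, which tests fewer genes, they were 1101 and 1180, the mitochondrially encoded genes called higher were 20 and the homeobox genes called lower 3. Interferon-stimulated genes called higher numbered 23–25 and mitotic genes called lower 19–21 in every fit run. No named or listed gene changed direction while called. Of 472 such genes called, 416 were called in every fit that gave a value, and 56 lost the call in at least 1, most often IKZF1 (9 fits) and CDA (8). No scaling shifted the median of all genes by more than 0.03.

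Of 32 lists, 10 held a gene without counts in 1 line. Setting such genes at their bound moved only the median of the T-cell and natural killer genes, from 3.48 to 2.84. At these depths the self-test recovered most changes of 1.5 but few of 0.5. Only 90 and 110 of its 16570 genes were changed, whereas 62.0% of genes were called between the lines. The adjustment of P was therefore stricter in the self-test, and its rates do not give the share of small differences missed here.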
